A study of Homo sapiens with 10 samples.

Results

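The genes described here are 53 factors of ribosome biogenesis, most of them proteins of the nucleolus, followed in K562 cells treated with inhibitors of the CREBBP/EP300 bromodomains. They were taken as the rows of the expression table that carry the listed symbols, and all 53 were found among its 23284 genes. K562 is an established human line from a chronic myelogenous leukemia. Cultures in RPMI medium with serum received vehicle (DMSO), CBP30 or I-CBP112 for 48 h, and both compounds were used at 2 and at 5 µM. CBP30 and I-CBP112 are small molecules that occupy the acetyl-lysine pocket of the CREBBP and EP300 bromodomains. Each of the 5 groups had 2 biological replicates, so 10 libraries of polyadenylated RNA were measured in a single cell line.

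Ribosomes are built in the nucleolus. RNA polymerase I transcribes the ribosomal RNA precursor, small nucleolar RNPs (snoRNPs) modify it, and the small and large subunits mature along separate paths with their own assembly factors. The transcription factor MYC is known to activate many of these genes by binding the E-box CACGTG together with MAX, and the listed factors include many such genes. MYC itself was lower in every treatment. Its level was 338 and 320 FPKM with DMSO, 241 and 231 with 2 µM I-CBP112, 210 and 201 with 5 µM I-CBP112, 148 and 146 with 2 µM CBP30, and 81.7 and 80.9 with 5 µM CBP30. FPKM counts fragments relative to transcript length and to the mapped reads of the library, so levels can be compared between genes of different length. The 5 groups did not overlap for MYC, and its log2 fold change against DMSO was −2.003 ± 0.0525 (SE) with 5 µM CBP30 (limma, adjusted p = 1.02e-06).

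The E-box was searched in the promoters because many of the listed genes are known to be activated by MYC. That property helped to define the list, so the share of promoters with the motif is a description of the list. RefSeq promoters on GRCh38.p14, 250 bases before to 50 after the annotated start, were matched for 45 of the 53 genes. The motif CACGTG reads the same on both strands. It was present in 18 of the 45 promoters (40%), against 7.43% of the 27305 promoters of the table, which cover genes of every kind and level. In 16 of the 18 the motif lay between 20 bases before the start and the end of the window, against 439 of the 2030 promoters with an E-box in the whole table (21.6%). That interval was chosen after the positions were seen. The following windows of 30 bases are a selection from the genes that fell with 5 µM CBP30 and had an E-box in that interval. WDR43, NOP2, NOC3L, PWP2 and UTP18 met the same rule and are not shown. The windows are written 5′ to 3′ on the strand of the gene, and the capitals mark the E-box.
PES1, chr22:30591880-30591909, minus strand: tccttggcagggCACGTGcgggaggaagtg
MRTO4, chr1:19251807-19251836, plus strand: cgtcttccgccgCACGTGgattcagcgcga
RRP9, chr3:51941892-51941921, minus strand: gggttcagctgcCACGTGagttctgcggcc
IMP4, chr2:130342900-130342929, plus strand: ttctcccggaccCACGTGgaagcggcactc
NAT10, chr11:34105602-34105631, plus strand: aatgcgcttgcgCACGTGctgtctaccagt
NOP14, chr4:2963374-2963403, minus strand: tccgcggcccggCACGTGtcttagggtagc
BYSL, chr6:41921515-41921544, plus strand: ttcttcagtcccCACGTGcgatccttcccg
GNL2, chr1:37595917-37595946, minus strand: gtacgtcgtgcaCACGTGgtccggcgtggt
PNO1, chr2:68157885-68157914, plus strand: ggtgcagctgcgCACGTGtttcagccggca
FBL, chr19:39846356-39846385, minus strand: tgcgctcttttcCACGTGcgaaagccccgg

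Counted from the annotated start, the first base of the E-box lay 5 bases upstream of it in RRP9, 14 bases downstream in MRTO4 and 13 downstream in PES1. A match is a description of these letters and not of binding. Genes with and without the motif had similar medians. The 27 genes with no E-box in the window had a median log2 fold change of −0.62 with 5 µM CBP30, and the 16 with a single one had −0.66. The gene that fell furthest, NOP16, had no CACGTG in its window.

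In cells treated with DMSO the genes spanned a wide range of levels, from 7.25 FPKM for UTP20, a factor of the small subunit, to 1635 FPKM for NPM1, with a median of 44.3. NPM1 encodes nucleophosmin, one of the most abundant nucleolar proteins. Together the 53 genes made up 0.782% and 0.793% of the summed FPKM with DMSO and 0.597% and 0.595% with 5 µM CBP30. A lower value in such bulk RNA cannot be told apart from a smaller share of cells that express the gene, and FPKM are relative to the remaining RNA of the library. The libraries carried the erythroid markers of K562, with means from 17.4 FPKM for TAL1 to 609 FPKM for HBZ with DMSO. Their summed level over 8 genes was 1735 to 1792 FPKM with DMSO and 521 to 546 with 5 µM CBP30. The globins HBZ (mean 609 to 84.6 FPKM) and HBG2 (439 to 128) lost the most FPKM. TAL1 alone had a higher mean with 5 µM CBP30 (23.8 FPKM). Of 8 markers of other cell types, 2 (MS4A1 and CDH5) were at 0 in all libraries, while EPCAM reached 59.7 FPKM and LYZ 52.1 FPKM, and the summed level of the 8 was 99.6 to 100.1 with DMSO and 82.5 to 86.9 with 5 µM CBP30. Only EPCAM pulled that sum down, from a mean of 59.2 to 32.4 FPKM, while the means of LYZ (38.2 and 46.1), CD3E (1.10 and 3.23) and COL1A1 (0.481 and 1.92) were higher with 5 µM CBP30. The part of these differences between libraries in the results was not tested.

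One library stood apart. In replicate 1 of 2 µM CBP30 the deviation from DMSO followed transcript length, with a Spearman's rho of −0.47 over 12173 genes, against −0.04 in replicate 2, and EEF1A1, which is expressed in every cell, was listed at 0 in replicate 1 only. For 2 µM CBP30 against DMSO and against 2 µM I-CBP112, the counts of genes called and the leading fold changes are therefore also given without that library. When a library was left out or the fit was changed, the number of all genes called lower moved too. Counts from such fits are not to be set against the shares of all genes given here.

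**Figure D1:**
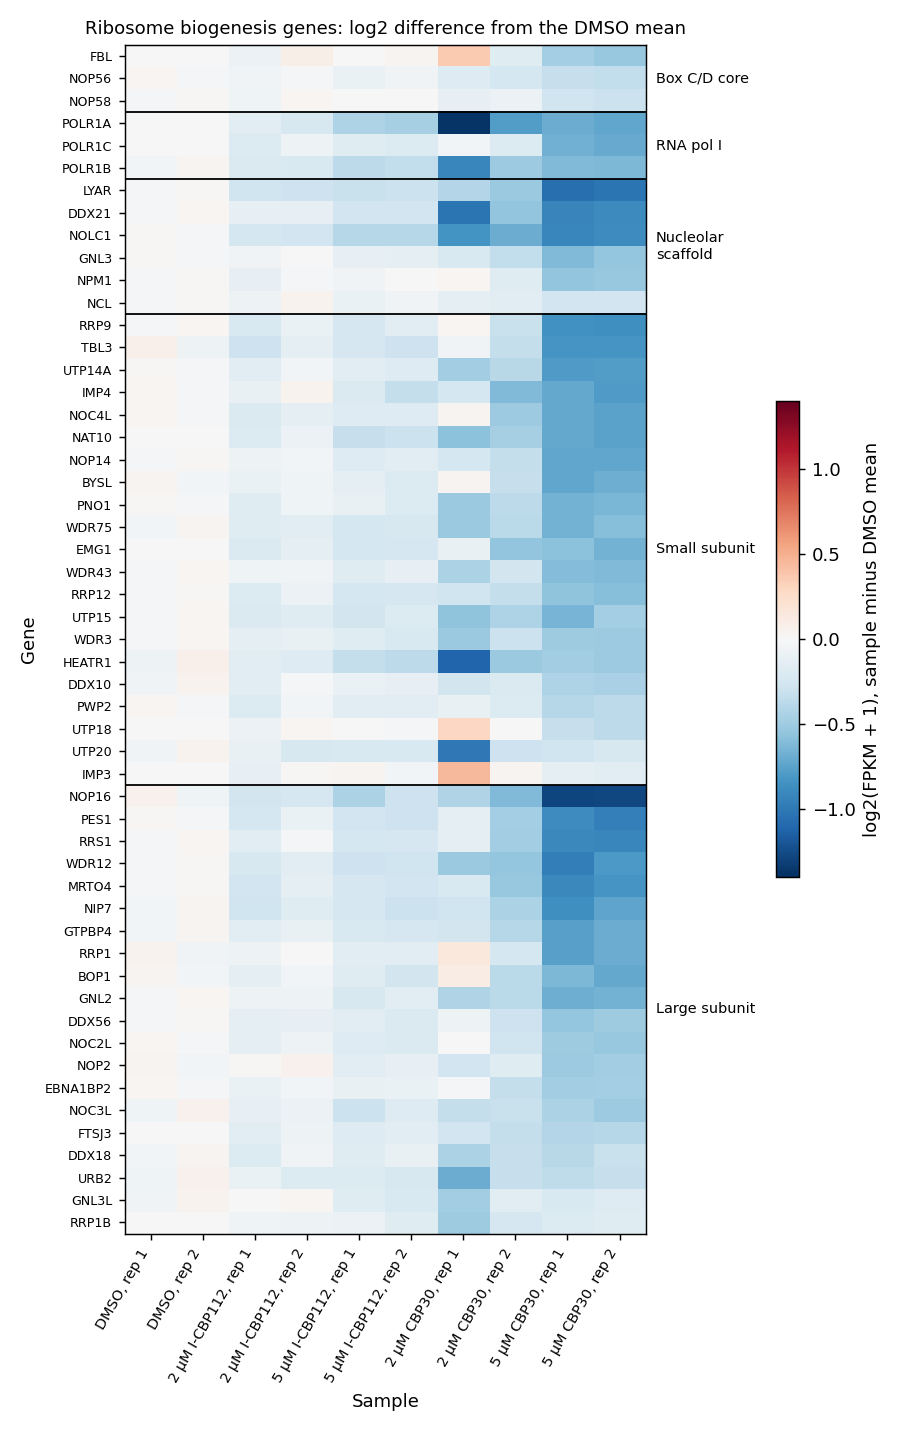
Log2(FPKM + 1) of each of the 53 genes in each of the 10 libraries minus the mean of the 2 DMSO libraries, with rows grouped by role and columns by treatment, blue for lower and red for higher. Both 5 µM CBP30 columns are blue for all 53 genes, while replicate 1 of 2 µM CBP30 mixes 44 genes below the DMSO mean with 9 above it.

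Nearly all of the genes fell with 5 µM CBP30. A total of 49 of the 53 genes fell and none rose, where 25.4% of the 12788 genes tested were called lower (limma on log2(FPKM + 1), Benjamini-Hochberg adjusted p under 0.05). The median log2 fold change was −0.62, with quartiles of −0.74 and −0.47, while the median of all genes tested was −0.01. Each of the 53 genes was below the DMSO mean in both libraries, and at the median a gene kept 64.3% of its DMSO level. The genes that were not called were IMP3, UTP20, GNL3L and RRP1B, all with negative fold changes. Between 43 and 53 genes were called when any single library was left out.

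The box C/D proteins form the core of the snoRNPs that place methyl groups on ribosomal RNA, and they fell the least of the role groups, with a median log2 fold change of −0.33. FBL is the methyltransferase itself and lies at chr19:40325098-40337019 (hg19). It stood at 299 and 297 FPKM with DMSO, 281 and 316 with 2 µM I-CBP112, 296 and 304 with 5 µM I-CBP112, 383 and 265 with 2 µM CBP30, and 213 and 205 with 5 µM CBP30. Only the 5 µM CBP30 group lay below all the others, at 29.7% under DMSO (log2 fold change −0.51 ± 0.154, adjusted p = 0.0311).

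NOP56 was at 99.9 and 95.8 FPKM with DMSO, 94.6 and 96.3 with 2 µM I-CBP112, 91.8 and 94.5 with 5 µM I-CBP112, 86.4 and 82.3 with 2 µM CBP30, and 77.8 and 77.0 with 5 µM CBP30. Its partner NOP58 was at 109 and 112, 106 and 112, 111 and 111, 101 and 104, and 90.9 and 89.5 FPKM in the same order of groups. Both CBP30 groups were below DMSO for both genes, and the values with I-CBP112 overlapped those with DMSO or lay just under them. The falls with 5 µM CBP30 were small but past the threshold, −0.33 ± 0.0478 for NOP56 (adjusted p = 0.00128) and −0.29 ± 0.0476 for NOP58 (adjusted p = 0.00245).

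All 3 RNA polymerase I subunits fell with 5 µM CBP30. POLR1A encodes the largest subunit of the enzyme (chr2:86247339-86333278, hg19). Its level was 18.6 and 18.5 FPKM with DMSO, 16.5 and 15.8 with 2 µM I-CBP112, 13.5 and 13.2 with 5 µM I-CBP112, 6.56 and 10.4 with 2 µM CBP30, and 11.1 and 10.8 with 5 µM CBP30. The groups descended without overlap from DMSO to 5 µM I-CBP112, and the lowest values were those of 2 µM CBP30. At 5 µM CBP30 the log2 fold change was −0.71 ± 0.164 (adjusted p = 0.0103), at 2 µM it was −1.08 ± 0.164 (adjusted p = 0.00346), and the difference between the concentrations did not pass the threshold (0.37, 95% interval −0.02 to 0.75). POLR1A has the longest transcript of the 53, of 12480 bases, and with the length trend removed the fold changes were −0.84 and −0.83.

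POLR1B, the other large subunit of the catalytic core, was at 21.4 and 22.6 FPKM with DMSO, 19 and 18.8 with 2 µM I-CBP112, 16.8 and 17.1 with 5 µM I-CBP112, 11.2 and 15.1 with 2 µM CBP30, and 13.9 and 13.8 with 5 µM CBP30. It fell with both concentrations of CBP30, by 0.63 on the log2 scale at 5 µM (adjusted p = 0.00384). POLR1C, which RNA polymerases I and III share, showed another pattern. Its values were 54.8 and 54.1 FPKM with DMSO, 47.7 and 51.9 with 2 µM I-CBP112, 48.4 and 47.6 with 5 µM I-CBP112, 52.8 and 47.6 with 2 µM CBP30, and 33.8 and 32.9 with 5 µM CBP30. All treated libraries of POLR1C were below those with DMSO. With all libraries and before the length correction, the change passed the test at 5 µM CBP30 alone (−0.69 ± 0.064, adjusted p = 0.000194). The difference between 5 and 2 µM CBP30 was −0.57 (adjusted p = 0.00194). At 2 µM CBP30 its log2 fold change was −0.12, and −0.19 without replicate 1 of that group. With the length trend removed it was −0.26, which passed the test (adjusted p = 0.0057). POLR1C overlaps LRRC73, XPO5 and YIPF3 on the other strand, and the strand setting of the counting was not given in the sources used here.

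All 6 nucleolar scaffold and RNA-binding proteins fell with 5 µM CBP30, with a median of −0.74. LYAR, a nucleolar zinc finger protein linked to cell growth (chr4:4269428-4291881, hg19), was at 42.0 and 43.0 FPKM with DMSO, 34.9 and 34.7 with 2 µM I-CBP112, 34.1 and 34.4 with 5 µM I-CBP112, 31.9 and 29.4 with 2 µM CBP30, and 19.9 and 20.4 with 5 µM CBP30. No group of LYAR overlapped another. Its fall with 5 µM CBP30 was −1.04 ± 0.051 (adjusted p = 1.46e-05), or 52.6% below DMSO.

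DDX21, an RNA helicase that acts with RNA polymerases I and II, was at 190 and 197 FPKM with DMSO, 179 and 178 with 2 µM I-CBP112, 160 and 160 with 5 µM I-CBP112, 94.6 and 131 with 2 µM CBP30, and 102 and 104 with 5 µM CBP30. The 5 µM values lay inside the spread of the 2 µM CBP30 group, and both groups were far under DMSO (−0.91 ± 0.131, adjusted p = 0.00133, at 5 µM). NOLC1 (Nopp140), a chaperone of snoRNPs, descended in order from 85.8 and 84.2 FPKM with DMSO through 71.7 and 70.5, 64.3 and 64.1, and 47.1 and 52.2 to 44.7 and 45.6 with 5 µM CBP30 (2 and 5 µM I-CBP112 and 2 µM CBP30 between them). None of its groups overlapped, and it was 46.9% below DMSO at 5 µM CBP30 (−0.90 ± 0.0558, adjusted p = 3.53e-05).

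Among the scaffold and RNA-binding proteins, the most abundant, NPM1 and NCL, changed the least. NCL (nucleolin) was at 435 and 447 FPKM with DMSO, 420 and 456 with 2 µM I-CBP112, 414 and 428 with 5 µM I-CBP112, 403 and 398 with 2 µM CBP30, and 368 and 367 with 5 µM CBP30, a fall of 16.8% at the last (−0.26 ± 0.0589, adjusted p = 0.00898). NPM1 was at 1622 and 1647 FPKM with DMSO, 1506 and 1605 with 2 µM I-CBP112, 1586 and 1643 with 5 µM I-CBP112, 1670 and 1452 with 2 µM CBP30, and 1118 and 1131 with 5 µM CBP30. Only 5 µM CBP30 was below the range of the other groups for NPM1 (−0.54 ± 0.0862, adjusted p = 0.0021). NPM1 has processed pseudogenes, and how shared reads were assigned was not given, so its level is less certain. GNL3 (nucleostemin), a nucleolar GTPase, completed the group with a fold change of −0.58.

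Of the 21 small subunit factors, 19 fell with 5 µM CBP30. RRP9, a protein of the U3 snoRNP (chr3:51967445-51975920, hg19), was at 25.1 and 26.1 FPKM with DMSO, 22 and 23.9 with 2 µM I-CBP112, 21.5 and 23.0 with 5 µM I-CBP112, 26.1 and 20.4 with 2 µM CBP30, and 13.8 and 13.7 with 5 µM CBP30. It was 46.3% below DMSO at 5 µM CBP30 (−0.85 ± 0.107, adjusted p = 0.000708), while at 2 µM CBP30 replicate 1 was as high as DMSO and replicate 2 was below it. TBL3, a part of the small subunit processome, was at 32.4 and 29.4 FPKM with DMSO, 25 and 27.9 with 2 µM I-CBP112, 26.2 and 25.2 with 5 µM I-CBP112, 29.9 and 24.2 with 2 µM CBP30, and 17.0 and 17.0 with 5 µM CBP30 (−0.82 ± 0.103, adjusted p = 0.000688). UTP14A, of the same particle, was at 38.3 and 37.7, 34.0 and 37.1, 34.0 and 33.4, 26.9 and 28.7, and 21.5 and 21.8 FPKM in that order. Both CBP30 groups of UTP14A lay below all the others, with −0.79 ± 0.0568 at 5 µM (adjusted p = 6.4e-05).

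IMP3, which binds the U3 snoRNA, had the smallest fold change with 5 µM CBP30 of the 53 genes. It was at 71.3 and 70.8 FPKM with DMSO, 65.3 and 72.0 with 2 µM I-CBP112, 72.9 and 69.1 with 5 µM I-CBP112, 97.6 and 73.1 with 2 µM CBP30, and 64.3 and 64.2 with 5 µM CBP30. The fold change with 5 µM CBP30 was −0.14 (95% interval −0.43 to 0.15, adjusted p = 0.377), and it was 0.01 with the length trend removed. Its transcript of 1132 bases is among the shortest of the list. UTP20 was the other small subunit factor that was not called at 5 µM, at 5.8 and 6.06 FPKM against 7 and 7.5 with DMSO.

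Among the small subunit factors that fell, UTP18 and PWP2, both parts of the small subunit processome, changed the least. UTP18 was at 50.9 and 51.4 FPKM with DMSO, 48.3 and 52 with 2 µM I-CBP112, 50.9 and 50.4 with 5 µM I-CBP112, 62.9 and 51 with 2 µM CBP30, and 40.7 and 39.5 with 5 µM CBP30 (−0.34 ± 0.0926, adjusted p = 0.0197). PWP2 was at 24.4 and 23.6, 21 and 23.3, 21.4 and 21.5, 22.3 and 21, and 18 and 18.3 FPKM in that order (−0.38 ± 0.0609, adjusted p = 0.00204). The lowest values of both were those of 5 µM CBP30. The remaining small subunit factors that fell (IMP4, NOC4L, NAT10, NOP14, BYSL, PNO1, WDR75, EMG1, WDR43, RRP12, UTP15, WDR3, HEATR1 and DDX10) had fold changes from −0.76 for IMP4 to −0.44 for DDX10.

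Of the 20 large subunit factors, 18 fell with 5 µM CBP30. NOP16 had the largest fold change of the 53 genes. It was at 57.0 and 52.4 FPKM with DMSO, 45.7 and 46.2 with 2 µM I-CBP112, 39.8 and 44.4 with 5 µM I-CBP112, 40.6 and 35.1 with 2 µM CBP30, and 21.8 and 22 with 5 µM CBP30. This was a loss of 59.9% (−1.28 ± 0.0842, adjusted p = 4.41e-05), and every treated group was below DMSO. NOP16 overlaps ARL10 and HIGD2A on the other strand, and 19 of the 53 genes overlap a protein-coding gene in this way. TBL3, EMG1, NOP2 and RRS1 overlap a protein-coding gene on their own strand.

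PES1, BOP1 and WDR12 form the PeBoW complex, which is needed to process the precursor of the large subunit RNA. PES1 was at 49.9 and 48.5 FPKM with DMSO, 41.3 and 46.2 with 2 µM I-CBP112, 40.6 and 40.2 with 5 µM I-CBP112, 44.8 and 35.1 with 2 µM CBP30, and 26.3 and 25 with 5 µM CBP30. BOP1 was at 60.7 and 57.3, 54.1 and 57.6, 52.4 and 49.1, 63.4 and 45, and 37.6 and 35.4 FPKM in that order. WDR12 was at 60.1 and 61.8, 51.9 and 54.5, 49.7 and 50.2, 42.1 and 41.5, and 30.7 and 34.3 FPKM. All 3 fell with 5 µM CBP30, by 0.92 (adjusted p = 0.00058), 0.68 (adjusted p = 0.00685) and 0.89 (adjusted p = 5.29e-05) on the log2 scale. With all libraries and before the length correction, of the 3 only WDR12 was also called at 2 µM CBP30 and at 5 µM I-CBP112. With the length trend removed its call at 5 µM I-CBP112 was lost. PES1 was then called at 2 µM CBP30 (−0.37, adjusted p = 0.00688) and BOP1 was not (−0.20, adjusted p = 0.173). Without replicate 1 of 2 µM CBP30, PES1 was at −0.48 and BOP1 at −0.38 there, against −0.30 and −0.14 with both libraries.

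RRS1, which helps to place a small ribosomal RNA in the large subunit, was at 23.6 and 24.6 FPKM with DMSO, 21.6 and 23.6 with 2 µM I-CBP112, 20.1 and 20.4 with 5 µM I-CBP112, 22 and 16.9 with 2 µM CBP30, and 12.4 and 12.3 with 5 µM CBP30 (−0.91 ± 0.109, adjusted p = 0.000571). GNL3L, a GTPase related to nucleostemin, was one of the 2 large subunit factors that were not called. It was at 7.22 and 7.81 FPKM with DMSO, 7.54 and 7.68 with 2 µM I-CBP112, 6.55 and 6.36 with 5 µM I-CBP112, 5.07 and 6.60 with 2 µM CBP30, and 6.33 and 6.48 with 5 µM CBP30. The value at 5 µM CBP30 was −0.20 (95% interval −0.44 to 0.04, adjusted p = 0.147). The other was RRP1B (−0.18, adjusted p = 0.105), whose paralogue RRP1 fell by 0.72 on the log2 scale (adjusted p = 0.00226).

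The smallest falls among the large subunit factors were those of URB2 and of DDX18, an RNA helicase. URB2 was at 8.89 and 9.71 FPKM with DMSO, 8.65 and 8.03 with 2 µM I-CBP112, 8.04 and 7.83 with 5 µM I-CBP112, 5.38 and 7.21 with 2 µM CBP30, and 7.03 and 7.23 with 5 µM CBP30 (−0.34 ± 0.114, adjusted p = 0.0444). DDX18 was at 51.6 and 54.2, 46.1 and 51.3, 46.8 and 49.1, 38.6 and 42, and 40.2 and 42.3 FPKM in that order (−0.35 ± 0.0712, adjusted p = 0.00595). The CBP30 groups of both genes were below the others and overlapped each other. The remaining large subunit factors that fell (MRTO4, NIP7, GTPBP4, GNL2, DDX56, NOC2L, NOP2, EBNA1BP2, NOC3L and FTSJ3) had fold changes from −0.87 for MRTO4 to −0.40 for FTSJ3.

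At 2 µM CBP30, 33 of the 53 genes fell and none rose, where 16.3% of all genes tested were called lower. The median log2 fold change was −0.32 and a gene kept 79.7% of its DMSO level at the median. By role, 1 of the 3 box C/D proteins, 2 of the 3 polymerase subunits, 4 of the 6 scaffold proteins, 13 of the 21 small subunit and 13 of the 20 large subunit factors fell. The largest changes were those of POLR1A (−1.08), HEATR1 (−0.82), DDX21 (−0.79) and NOLC1 (−0.77). Without replicate 1 of 2 µM CBP30 these 4 were at −0.78, −0.52, −0.56 and −0.69, all still past the threshold, and NOP16 and IMP4 (both −0.62) then lay below DDX21 and HEATR1. FBL, UTP18 and IMP3 were above DMSO at the mean, and none of them passed the threshold.

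The replicates of this group differed in which genes were low. Over the 53 genes the change in replicate 1 followed transcript length (rho −0.68), with a median of −0.13 for the 27 shorter and −0.47 for the 26 longer transcripts. In replicate 2 the medians were −0.34 and −0.33, and 52 of the 53 genes were below the DMSO mean. In both libraries of 5 µM CBP30 the relation was weak and of the opposite sign (0.15 and 0.19). These correlations are descriptions over genes that share their libraries and the DMSO mean.

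Without replicate 1 of 2 µM CBP30, 45 genes were called lower, 31 of them shared with the 33. With the length trend removed there were 42, of which 32 were shared. The count depended on the DMSO libraries too. It was 1 when only the libraries of DMSO and 2 µM CBP30 entered the fit, which called 164 of all genes tested lower.

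The concentrations of CBP30 were compared directly. From 2 to 5 µM, 35 of the 53 genes were lower and none were higher, with a median difference of −0.29, where 21.3% of all genes tested were called lower. NOP16 (−0.76, adjusted p = 0.00192), RRP9 (−0.71, adjusted p = 0.00517) and RRP1 (−0.68, adjusted p = 0.0076) had the largest differences with all libraries. These differences were smaller without replicate 1 of 2 µM CBP30. At 2 µM against DMSO, NOP16 was then at −0.62 in place of −0.52. RRP9 was at −0.31 in place of −0.14, and RRP1 at −0.24 in place of −0.05. The median difference over the 53 genes was then −0.24. NOLC1 (−0.13, 95% interval −0.26 to 0.00) and DDX21 (−0.12, 95% interval −0.42 to 0.19) did not pass the threshold. The mean was lowest at 2 µM and not at 5 µM in 8 genes (POLR1A, POLR1B, UTP20, HEATR1, RRP1B, GNL3L, DDX18 and URB2), none of which was called different between the concentrations. The difference across all 53 genes increased with transcript length (rho 0.69). Over all genes, the deviation from DMSO fell with length in replicate 1 of 2 µM CBP30 and increased with it in both libraries of 5 µM CBP30 (rho 0.193 and 0.194), and the part of each in this difference was not tested. With the length trend removed 32 genes were called lower, 26 of them shared with the 35. The count was 10 and 13 without replicate 1 and replicate 2 of 5 µM CBP30, and 0 with only these 2 groups in the fit.

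I-CBP112 moved the genes in the same direction by smaller steps. At 5 µM, 51 of the 53 means were below DMSO with a median log2 fold change of −0.19, and 6 genes were called lower, where 3.28% of all genes tested were. These were NOLC1 (−0.40 ± 0.0558, adjusted p = 0.00846), NOP16 (−0.37, adjusted p = 0.0456), NAT10 (−0.31, adjusted p = 0.0208), LYAR (−0.30, adjusted p = 0.0168), WDR12 (−0.28, adjusted p = 0.0396) and RRP12 (−0.24, adjusted p = 0.0471). NAT10 acetylates ribosomal RNA, and RRP12 takes part in the export of the small subunit. NAT10 was at 44 and 44.6 FPKM with DMSO and at 35.4 and 35.9 with 5 µM I-CBP112. POLR1A had a larger fold change (−0.45, adjusted p = 0.165) that did not pass the test.

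The number called at 5 µM I-CBP112 depended on single libraries. It was 37 without either library of 2 µM CBP30, 3 without either library of 5 µM CBP30 or of 2 µM I-CBP112, and 0 without either library of DMSO or of 5 µM I-CBP112. It was 15 with the length trend removed, which shared 5 of the 6 and lost WDR12 (−0.26, adjusted p = 0.134). Because all groups share an estimate of the spread, the 2 µM CBP30 libraries widen the error of comparisons they are not part of. The number of all genes called lower moved between these fits too, so the counts are not to be set against the 3.28%. At an unadjusted p under 0.05 there were 25 genes, against 2819 of the 12788 genes tested.

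At 2 µM I-CBP112 no gene of the 53 was called by limma, where 0.735% of all genes tested were called lower. A total of 50 means were below DMSO and the median was −0.11. An unadjusted p under 0.05 was found for 8 genes, and for 1761 of the 12788 genes tested. LYAR was nearest to the threshold (−0.28 ± 0.051, adjusted p = 0.0502). Without either library of 2 µM CBP30, 5 genes were called. The number of all genes called lower was also higher then, so this count is not to be set against the 0.735%. The comparison of 5 with 2 µM I-CBP112 called none of the 53 (background 0.00782%), although the mean was lower at 5 µM in 48 of them. The median difference was −0.07, with 5 genes at an unadjusted p under 0.05, against 774 of the 12788 genes tested. The 4 comparisons with DMSO share its 2 libraries, so their directions are not independent of each other.

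The compounds were compared at matched concentrations. At 5 µM, all 53 genes were lower with CBP30 than with I-CBP112 and 43 were called, with a median difference of −0.42, where 17.9% of all genes tested were called lower. NOP16 (−0.91, adjusted p = 0.000484) and LYAR (−0.74, adjusted p = 0.000168) differed the most. The 10 genes that were not called included POLR1A (−0.26, 95% interval −0.65 to 0.12), POLR1B (−0.27, 95% interval −0.54 to 0.00) and GNL3L (−0.01, 95% interval −0.25 to 0.23). The count was 26 and 27 without replicate 1 and replicate 2 of 5 µM CBP30, and 25 and 26 without those of 5 µM I-CBP112.

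At 2 µM, 21 genes were lower with CBP30 than with I-CBP112 and none were higher, with a median difference of −0.19, where 8.45% of all genes tested were called lower. POLR1A (−0.88, adjusted p = 0.0166), DDX21 (−0.68, adjusted p = 0.019) and HEATR1 (−0.65, adjusted p = 0.0405) led this list, and the transcripts of all 3 are longer than the median of the 53 genes, 2757 bases. Without replicate 1 of 2 µM CBP30 they were at −0.59, −0.44 and −0.36, all still past the threshold, and IMP4 (−0.59) stood beside POLR1A. HEATR1 lost its call in the fit with a replicate block. The count was 33 without replicate 1 of 2 µM CBP30 and 31 with the length trend removed. It was 10 without either DMSO library, 8 without either library of 5 µM CBP30 or of 5 µM I-CBP112, 3 and 1 without replicate 1 and replicate 2 of 2 µM I-CBP112, and 0 with only the 2 groups in the fit.

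The step from 2 to 5 µM differed between the compounds for 4 genes, where 3.32% of all genes tested had a lower step with CBP30. From 2 to 5 µM, LYAR changed by −0.58 with CBP30 and by −0.02 with I-CBP112, a difference of −0.56 ± 0.0721 (adjusted p = 0.0154). For NOP16 the difference was −0.63 ± 0.119 (adjusted p = 0.0364), for POLR1C −0.52 ± 0.0906 (adjusted p = 0.0315) and for NOP14 −0.33 ± 0.0669 (adjusted p = 0.0439). NOP14, a factor of the small subunit processome, was at 44.5 and 45.3 FPKM with DMSO and 26.7 and 26.8 with 5 µM CBP30. The count was 15 and 28 without replicate 1 and replicate 2 of 2 µM CBP30, 1 without either DMSO library and 0 without any other single library.

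In 30 of the 53 genes the group means descended from DMSO through 2 and 5 µM I-CBP112 and 2 µM CBP30 to 5 µM CBP30, the order of the MYC means. In 45 genes the mean was lowest with 5 µM CBP30. How many of all genes tested follow either pattern was not counted, and a link to MYC was not tested.

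The pathway holds more genes than those listed, and 82 further ribosome assembly factors and polymerase I subunits were examined, of which 81 were in the table and tested. With 5 µM CBP30, 63 of the 81 fell and none rose, with a median log2 fold change of −0.51, where 25.4% of all genes tested were called lower. The 3 largest falls were those of WDR74, NLE1 and NOB1. WDR74 and NLE1 act on the maturing large subunit, and NOB1 is the nuclease that makes the final cut of the small subunit RNA. WDR74 was at 54.7 and 55.5 FPKM with DMSO, 46.7 and 47.5 with 2 µM I-CBP112, 43.5 and 42.4 with 5 µM I-CBP112, 49.9 and 36.1 with 2 µM CBP30, and 20.7 and 18.5 with 5 µM CBP30, a fold change of −1.45 ± 0.133 (adjusted p = 0.000187). NLE1 went from 29.7 and 29.9 to 12.3 and 12.3 FPKM with 5 µM CBP30 (−1.21, adjusted p = 3.08e-05), and NOB1 from 114 and 112 to 51.1 and 49.3 FPKM (−1.15, adjusted p = 1.83e-05).

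At 2 µM CBP30, 36 of the 81 fell, against 16.3% of all genes tested, and 1 rose, TAF1C (0.25, adjusted p = 0.0407), a subunit of the selectivity factor of RNA polymerase I. At 5 µM I-CBP112, 5 fell (POLR1E, RRP15, TSR1, LAS1L and DHX37, named after their values were seen), against 3.28% of all genes tested. At 2 µM I-CBP112 none were called, against 0.735% of all genes tested. At an unadjusted p under 0.05 there were 15 of the 81, against 1761 of the 12788 genes tested. POLR1E, another subunit of RNA polymerase I, had a fold change of −0.30 (adjusted p = 0.0243) at 5 µM I-CBP112.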

How the data were processed

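RNA of K562 cells (10 cultures, 5 groups of 2, 48 h) was isolated, polyadenylated RNA was made into TruSeq stranded mRNA libraries, and single reads were sequenced. The authors ran Nextpresso on hg19 and deposited 1 FPKM value for each gene in each sample, with replicates kept separate. The submitters' processing notes name FastQC, TopHat2 2.0.10, Bowtie 1.0.0, SAMtools 0.1.19, Cufflinks 2.2.1 and Cuffnorm. FPKM keep no read counts, so depth is unknown and no counting interval was derived. A value is relative to transcript length and to the remaining RNA of its library, and the scaling leaves out changes in total RNA per cell. The number of samples in the deposited table without a label was 0.

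Values were analysed as log2(FPKM + 1), which understates the change of low genes, with limma 3.58.1 in R 4.3.3 (lmFit, eBayes with trend). Tests covered the 12788 of 23284 genes whose mean over all samples reached 0.5 FPKM, and all 53 listed genes were among them. All groups entered 1 fit (5 residual degrees of freedom, with 2.15 more from eBayes). The Benjamini-Hochberg adjustment ran over all genes tested, and an adjusted p under 0.05 was a call. Errors are SE of the fit, and p-values measure the spread between 2 cultures per group.

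The 53 genes, their role groups, the further pathway genes and the tests were chosen with earlier results of these data known. Values per sample are given for the box C/D, polymerase I and PeBoW proteins, NCL and NPM1, the 3 most and the 2 least negative called genes and the one with the largest adjusted p in each larger role group, and for MYC. Any of the 53 genes may be named. Of the further genes, the 3 with the most negative and the 3 with the most positive called change are named.

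Transcript lengths came from GENCODE v44 on GRCh37 (19500 genes by symbol and 1985 by synonym, 92.3% of the table), and a lowess trend (span 0.3) with length was removed from each sample as an alternative. Further alternatives changed the pseudocount to 0.1, the filter to none or to 5 FPKM, the scaling to median centring or quantile normalization, and eBayes to no trend. Others fitted the compared groups alone, blocked on the replicate number, or left out each sample. The test of the step in concentration between compounds, and the length correction without replicate 1 of 2 µM CBP30, were added after the data were seen. Promoters came from RefSeq (GRCh38.p14) and their coordinates are on that build, while gene positions are on hg19. Figures were made in Python 3.11.15 with matplotlib 3.10.9.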

Additional observations from a re-analysis of the deposited data

Results flagged for a closer look

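For 4 of the 53 genes (LYAR, NOP16, POLR1C and NOP14) the change from 2 to 5 µM was lower with CBP30 than with I-CBP112 by the interaction test across all genes. The 2 µM CBP30 libraries, which differ from each other along transcript length, enter this test. It was added after the data were seen.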

How the results depend on the processing

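With 5 µM CBP30 against DMSO, 46 to 52 of the 53 genes were called lower under the alternatives that kept all libraries, 53 with only the groups compared and 43 to 53 when one library was left out, and none were called higher. The other counts moved more. The number of all genes called lower moved between settings too, so these counts are not to be set against the shares given in the Results. The cause was not tested except where the alternative uses fewer libraries. Fits of only the groups compared, which have fewer residual degrees of freedom, called 1 gene lower at 2 µM CBP30, 20 at 5 µM I-CBP112, 0 between the concentrations of CBP30 and 0 between the compounds at 2 µM. At 5 µM I-CBP112 the count was 3 with median centring, 3 with eBayes without trend, 15 with the length trend removed and 41 with that and without replicate 1 of 2 µM CBP30. At 2 µM I-CBP112 it was 1 with quantile normalization, 2 with the length trend removed and 10 without that library as well. Between the compounds at 2 µM it was 35 with the length trend removed and without that library.

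Leaving out a library in turn, with its lone partner assumed to vary like the other groups, gave 16 to 45 genes called lower and 0 to 3 higher at 2 µM CBP30, 0 to 37 lower at 5 µM I-CBP112, 0 to 5 lower at 2 µM I-CBP112, 10 to 37 lower and 0 to 8 higher between the concentrations of CBP30, 25 to 48 lower between the compounds at 5 µM, 1 to 33 lower and 0 to 5 higher between them at 2 µM, and 0 to 28 lower and 0 to 8 higher for the step in concentration. The genes called higher appeared without replicate 2 of 2 µM CBP30, and for the step 1 appeared without replicate 1.

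The replicate numbers come from the sample titles. Same-numbered samples of different groups did not deviate together (r from −0.0681 to 0.0939), so the numbers were not taken to pair the samples. In fits with a replicate block, the number of genes called lower was 48 at 5 µM CBP30, 32 at 2 µM CBP30, 4 at 5 µM I-CBP112 and 0 at 2 µM I-CBP112. It was 32 between the concentrations of CBP30, and 42 and 16 between the compounds at 5 and 2 µM. Removing the length trend under the replicate block gave 11 at 5 µM I-CBP112 and 2 at 2 µM I-CBP112.

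Among the named genes, 33 of the recomputed log2 fold changes turned sign, all of them from values that had not passed the threshold. With the length trend removed, IMP3 at 5 µM CBP30 was 0.0122 (also with the block or without replicate 1 of 2 µM CBP30) and FBL at 2 µM CBP30 was −0.0619 (also with the block). FBL was −0.171 when that replicate was left out as well, which passed the threshold (adjusted p = 0.0395), and UTP18 was −0.00187 there. With quantile normalization, FBL was −0.00743 at 2 µM CBP30 and −0.0221 at 5 µM I-CBP112, UTP18 was 0.0163 and IMP3 0.0335 at 5 µM I-CBP112, and NOP56 was 0.0015, NOP58 0.00649 and UTP18 0.0117 at 2 µM I-CBP112. With median centring IMP3 was 0.00578 at 5 µM I-CBP112. Over the libraries left out in turn, the values at 2 µM CBP30 ran from −0.165 to 0.363 for FBL, −0.17 to 0.0308 for NPM1, −0.314 to 0.0277 for RRP9, −0.00283 to 0.294 for UTP18 and −0.382 to 0.102 for BOP1. At 5 µM I-CBP112 they ran from −0.00898 to 0.0329 for FBL, −0.0122 to 0.0211 for NOP58, −0.0439 to 0.00733 for NPM1 and −0.0385 to 0.0375 for IMP3. At 2 µM I-CBP112 they ran from −0.082 to 0.0849 for FBL, −0.0605 to 0.025 for NOP58, −0.0703 to 0.0485 for NCL, −0.0815 to 0.0237 for UTP18, −0.119 to 0.020 for IMP3 and −0.0327 to 0.0667 for GNL3L.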

Other observations

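The listed genes also host small nucleolar and Cajal body RNAs in their introns. In 6 of them (NOP56, NOP58, POLR1C, NCL, GNL3 and WDR43) the table holds 13 such genes, and 11 of these were listed at exactly 0 in 1 or more of the 10 libraries, 4 of them in all. SNORD86, in an intron of NOP56, was listed above 0 in each library but never over 3.25e-06 FPKM. SCARNA15, in an intron of POLR1C, was listed at 27.0 and 13.4 FPKM with DMSO and at 12.6 and 7.14 with 5 µM CBP30. Libraries of polyadenylated RNA do not measure these short RNAs well, and no test was made of them.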
